A study of Mus musculus with 12 samples.

Results

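The genes followed here are the Toll-like receptor genes Tlr1, Tlr2, Tlr3, Tlr4, Tlr6, Tlr7, Tlr8 and Tlr9, the trafficking chaperone gene Unc93b1 and the adaptor gene Myd88. They were chosen by name, as 10 of the 54532 genes in the count table. The cells were primary B lymphocytes sorted from 3 wild type mice and 3 Tmem173-/- mice, and poly-A RNA was sequenced. STING, the product of Tmem173, is a sensor of cyclic dinucleotides such as the bacterial molecule 3'3'-cGAMP (cGAMP below). In each genotype cells were cultured without cGAMP (control) or with cGAMP for 12 hours, which gave 4 groups of 3 libraries, a control and a cGAMP group for wild type mice and likewise for Tmem173-/- mice. Strain, age, sex and the nature of the Tmem173 allele are not given in the sources used here, and neither is whether equal replicate numbers mark the same mouse, so p-values measure the spread between these libraries.

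Toll-like receptors recognise microbial molecules and start inflammatory and interferon signalling. TLR2, which pairs with TLR1 or TLR6 to bind bacterial lipopeptides, and TLR4, which binds lipopolysaccharide, sit at the cell surface. TLR3, TLR7, TLR8 and TLR9 bind nucleic acids in endosomes and need UNC93B1 to leave the endoplasmic reticulum. MyD88 is the adaptor of every Toll-like receptor except TLR3, which signals through TRIF, and in B cells TLR7 and TLR9 are the receptors best known for driving activation.

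Promoter windows, the bases just before a RefSeq start of a gene, were searched for 3 motifs. This was done because the genes divided into some that rose and some that fell with cGAMP. Of the 10 genes, 7 have entries in the RefSeq promoter table (GRCm38.p6), and Tlr4, Tlr7 and Unc93b1 have none. Among the genes that rose, only Tlr3 could therefore be searched. The windows of 250 bases before the start are shown for Tlr3, which rose, Tlr2 and Tlr6, which fell, and Myd88, which did not pass the test, each from the gene's own strand, with the matched letters in capitals.
Tlr3: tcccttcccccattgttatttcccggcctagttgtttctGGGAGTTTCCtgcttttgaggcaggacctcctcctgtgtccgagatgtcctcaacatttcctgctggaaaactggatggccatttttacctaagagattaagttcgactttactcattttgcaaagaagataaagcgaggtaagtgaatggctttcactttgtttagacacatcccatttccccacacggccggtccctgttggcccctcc
Tlr2: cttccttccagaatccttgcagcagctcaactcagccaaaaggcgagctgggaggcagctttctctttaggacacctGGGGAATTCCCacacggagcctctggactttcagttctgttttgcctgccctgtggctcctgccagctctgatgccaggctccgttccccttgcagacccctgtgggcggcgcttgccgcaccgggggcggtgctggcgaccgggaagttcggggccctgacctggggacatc
Tlr6: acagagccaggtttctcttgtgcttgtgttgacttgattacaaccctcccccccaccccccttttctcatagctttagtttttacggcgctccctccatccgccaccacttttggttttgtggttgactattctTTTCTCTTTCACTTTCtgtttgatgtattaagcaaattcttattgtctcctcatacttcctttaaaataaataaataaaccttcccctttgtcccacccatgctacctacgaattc
Myd88: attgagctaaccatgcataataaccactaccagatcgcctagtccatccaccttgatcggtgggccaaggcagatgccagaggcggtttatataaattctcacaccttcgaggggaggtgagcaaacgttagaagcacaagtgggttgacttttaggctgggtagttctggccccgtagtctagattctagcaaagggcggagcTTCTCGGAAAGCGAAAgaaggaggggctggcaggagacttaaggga
The Tlr3 window, chr8:45410381-45410630 on the minus strand, holds an NF-kB (kB site) match, GGGAGTTTCC, that begins 211 bases before the start. The Tlr2 window, chr3:83841609-83841858 on the minus strand, holds 2 overlapping matches to the same consensus. The Tlr6 window, chr5:64959167-64959416 on the minus strand, belongs to 1 of its RefSeq starts and holds 2 overlapping matches to the core of the interferon-stimulated response element (GAAA repeated after any 2 bases, searched on both strands). The Myd88 window, chr9:119340019-119340268 on the minus strand, holds that core 40 to 31 bases before the start, overlapping a match to the gamma-activated sequence TTCNNNGAA, which reads the same on both strands. Of all 32851 promoter windows of this length, 3.90% hold the NF-kB consensus, 2.98% the response element core and 7.02% the gamma-activated sequence. Of the windows not shown, those of Tlr8 and of 1 start of Tlr1 hold the gamma-activated sequence. Those of Tlr9 and of the other starts of Tlr1 and Tlr6 hold none of the 3 motifs. In the deposited table the minus-strand spans of Tlr3, Tlr6 and Myd88 begin further upstream, at 45411080, 64960097 and 119341411. The windows shown for these genes therefore lie inside the deposited span, and that of Tlr2 (span from 83841767) lies partly inside it. The matches are given as a description of the letters in these windows.

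Libraries held 26490593 to 31417833 counts, and 14473 genes passed the filter on low counts and were tested with edgeR. CPM are library-size-scaled counts by edgeR, and ± gives the SD (n = 3). Tmem173 RNA did not separate the controls, at 95.3 ± 5.95 CPM in wild type and 92.7 ± 11.5 in those labelled Tmem173-/-. With cGAMP it was at 47.3 ± 2.37 CPM in wild type and 93.3 ± 9.45 in libraries labelled Tmem173-/-. It fell in wild type cells (log2 -1.01, SE 0.10, edgeR adjusted p = 8.07e-07). The difference between the wild type and Tmem173-/- responses also passed (log2 -1.02, adjusted p = 6.43e-05). Its level in controls does not check the genotype, and these libraries are called by their label throughout. The 6 B cell markers were detected in every library. They summed to 4585 to 5559 CPM in wild type controls and 3237 to 4004 with cGAMP, without overlap. With cGAMP 2 of them were higher and 4 lower in wild type cells, beside 22.4% higher and 25.4% lower over all tested genes. The markers summed to 4763 to 5788.5 CPM across libraries labelled Tmem173-/-. The part of this shift in the results below was not tested. T cell, NK cell and neutrophil markers were highest in the wild type libraries numbered 1 (S100a8 had 55 and 167 counts there, and at most 21 elsewhere), so the 6 genes called in wild type cells are also given without both.

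In mm10 coordinates of the deposited table, the genes that changed lie at chr3:83836272-83841767 (Tlr2), chr5:64952031-64960097 (Tlr6), chr5:64924679-64933563 (Tlr1), chr4:66827584-66930284 (Tlr4), chr8:45395665-45411080 (Tlr3) and chrX:167304929-167330558 (Tlr7). Tlr9 and Myd88 lie on chromosome 9, Unc93b1 on chromosome 19 and Tlr8 on chromosome X.

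In wild type cells the 4 surface receptors fell with cGAMP and 2 of the endosomal receptors rose. By edgeR's quasi-likelihood test with Benjamini-Hochberg adjustment, Tlr2, Tlr6, Tlr4 and Tlr1 fell and Tlr3 and Tlr7 rose, whereas Tlr9, Unc93b1 and Myd88 did not pass the test. Of the 9 genes that could be tested, 2 rose, 4 fell and 3 did not pass an adjusted p of 0.05. In the same comparison 47.8% of all tested genes passed, 22.4% higher and 25.4% lower, so a changed gene was common in this comparison and the count shows nothing particular to these genes. Their median log2 fold change was -0.09 and that of all tested genes -0.00.

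Tlr2, the shared partner of the lipopeptide receptors, was at 18.3, 16.0 and 21.3 CPM in wild type control replicates 1 to 3 and at 7.43, 6.16 and 10.2 CPM with cGAMP. All 3 treated libraries lay below all 3 controls. The change was 2.34-fold lower (log2 -1.22, SE 0.16, adjusted p = 1.31e-05). Controls labelled Tmem173-/- were at 19.3, 18.6 and 16.5 CPM and their cGAMP-treated libraries at 17.3, 19.7 and 17.2 CPM, which overlap.

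Tlr6 had the lowest level per length of the surface receptors (2.69 ± 0.59 FPKM in wild type controls, SD, n = 3). It was at 5.24, 6.83 and 4.95 CPM in the wild type controls and at 2.48, 2.44 and 2.67 CPM with cGAMP, again without overlap, a change of 2.24-fold lower (log2 -1.16, SE 0.19, adjusted p = 8.48e-05). In libraries labelled Tmem173-/- it was at 5.40, 7.09 and 6.17 CPM without and 6.40, 6.06 and 7.68 CPM with cGAMP. The 3 treated wild type libraries were the lowest of all 12.

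Tlr1, the other partner of TLR2, was at 53.6, 72.8 and 55.1 CPM in the wild type controls and at 36.3, 49.4 and 40.5 CPM with cGAMP. Libraries labelled Tmem173-/- were at 54.3, 77.1 and 72.7 CPM without and 56.9, 77.4 and 76.5 CPM with cGAMP. The wild type ranges did not overlap, and the fall was 1.44-fold (log2 -0.52, SE 0.17, adjusted p = 0.0188). This call was the least firm of the 6: it was lost in 7 of 22 alternatives, among them scaling by library totals (adjusted p = 0.0550), leaving out wild type control replicate 2 (0.0829), wild type cGAMP replicate 1 (0.0737) or replicate 3 (0.0576), and leaving out both wild type libraries numbered 1 (0.0547). The call held in 15, among them a block for replicate numbers (adjusted p = 1.79e-05) and DESeq2 (0.00759). These 15 include each fit without a library labelled Tmem173-/-, and such a library does not enter the wild type group means. Tlr1 and Tlr6 lie near each other on chromosome 5 and share sequence: 13.6% of the 50-base windows of Tlr1 transcripts also occur in Tlr6 transcripts, and 12.3% the other way, so a read that lies wholly within such a stretch fits both genes.

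Tlr4, the lipopolysaccharide receptor, was at 17.5, 16.6 and 19.6 CPM in the wild type controls and at 9.17, 9.06 and 12.3 CPM with cGAMP. The groups did not overlap and the fall was 1.76-fold (log2 -0.81, SE 0.14, adjusted p = 0.000189). In libraries labelled Tmem173-/- the values were 15.6, 15.6 and 12.1 CPM without and 17.6, 15.3 and 16.7 CPM with cGAMP. Ly96, the co-receptor that TLR4 needs to bind lipopolysaccharide, was at 1.57 ± 0.36 CPM in the wild type controls and 1.43 ± 0.04 with cGAMP (SD, n = 3; adjusted p = 0.736), and Cd14, the lipopolysaccharide transfer protein, had at most 23 counts in any library. Both are named here after their values were seen.

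Several of these receptors are also expressed by myeloid cells, and in bulk RNA fewer cells of a type and less RNA per cell cannot be told apart. The 8 monocyte and macrophage markers summed to 36.4 to 46.7 CPM in the wild type controls and 10.8 to 19.4 with cGAMP, and to 46.0 to 61.9 across libraries labelled Tmem173-/-. In wild type controls most of that sum was Adgre1 (30.8 CPM, and 4.41 with cGAMP), while Mertk had 1 count in all 12 libraries and Itgam at most 10 in any. Of the 6 tested markers 2 fell, Adgre1 and Ms4a7 (0.177 CPM in wild type controls), and none rose. Markers of the marginal zone B cell, a subset known for strong Toll-like receptor responses, summed to 347 to 370.1 CPM in the wild type controls and 172 to 193 with cGAMP, and 5 of 6 fell. Over all tested genes 25.4% fell and 22.4% rose in wild type cells. The part of the monocyte and macrophage or the marginal zone markers in the fall of the surface receptors was not tested. Without both wild type libraries numbered 1 the log2 changes were -1.19 for Tlr2, -1.21 for Tlr6 and -0.76 for Tlr4, and all 3 still passed.

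Tlr3, the receptor for double-stranded RNA, had the largest log2 change of the 9 tested genes in wild type cells and, in wild type controls, the lowest level per length among them. It had 26, 45 and 42 counts in wild type controls (0.926, 1.58 and 1.48 CPM) and 130, 166 and 169 counts with cGAMP (4.73, 5.72 and 6.02 CPM). Each treated library was above each control, and the rise was 4.11-fold (log2 2.04, SE 0.36, adjusted p = 0.000194). In libraries labelled Tmem173-/- Tlr3 had 14, 28 and 45 counts without and 40, 31 and 23 with cGAMP, and the ranges overlapped. Conventional dendritic cells are also rich in Tlr3, and their 6 markers summed to 15.4 to 20.6 CPM in the wild type controls, 37.0 to 45.3 with cGAMP and 17.8 to 25.3 across libraries labelled Tmem173-/-. Of the 5 tested, Zbtb46 and Flt3 rose and none fell, while Clec9a had at most 5 counts in any library. The 4 B-1 cell markers summed to 68.5 to 88.8 CPM in the wild type controls, 211 to 327 with cGAMP and 68.6 to 88.6 across libraries labelled Tmem173-/-, with Zbtb32 higher and the other 3 lower. Of all tested genes, 22.4% rose and 25.4% fell in the same wild type comparison. The part of the conventional dendritic cell or the B-1 cell markers in the rise of Tlr3 and Tlr7 was not tested. Tlr3 shares 381 of its 5207 exon bases with Gm45542 on the other strand, which had 0 counts in all libraries. Whether counting used strand is not given in the sources used here. Those 0 counts therefore do not show that Tlr3 reads in the shared stretch were unaffected.

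Tlr7, the receptor for single-stranded RNA, rose 2.34-fold (log2 1.23, SE 0.14, adjusted p = 4.08e-06). Wild type controls were at 60.5, 68.5 and 95.3 CPM and the cGAMP libraries at 169.6, 168 and 188 CPM. The lowest treated library was well above the highest control, although control replicate 3 stood above the other two. Irf7, an interferon-induced transcription factor downstream of TLR7 and TLR9, was likewise highest in that control, at 15.2, 35.2 and 89.3 CPM in wild type controls 1 to 3 and 629, 759.5 and 609 CPM with cGAMP. Without wild type control replicate 3 the Tlr7 change was log2 1.44 (adjusted p = 1.09e-07). Without both wild type libraries numbered 1 it was 1.12, and that of Tlr3 was 1.93, and both still passed. Libraries labelled Tmem173-/- held 45.8, 51.7 and 58.8 CPM of Tlr7 without and 53.3, 61.4 and 53.3 CPM with cGAMP.

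Plasmacytoid dendritic cells are another cell type rich in Tlr7. Their 6 markers summed to 349 to 434 CPM in the wild type controls and 670.0 to 684 with cGAMP. They summed to 371 to 394 CPM across libraries labelled Tmem173-/-. Nearly all of it was Bst2, which interferon also induces, and Tcf4, which B cells express. Of the 4 tested, Bst2 and Ccr9 (1.05 to 2.30 CPM) rose and Tcf4 (298 to 238 CPM) fell in wild type cells. Over all tested genes 22.4% rose and 25.4% fell. Siglech, a surface marker of these cells, had at most 5 counts in any library. The part of these cells in the rise of Tlr7 was not tested.

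Tlr9, the receptor for unmethylated CpG DNA, did not pass the test in either genotype. It was at 170.2, 142 and 162 CPM in the wild type controls and 173, 154 and 164 CPM with cGAMP, and the groups overlapped throughout. The log2 change was 0.05 (SE 0.11, adjusted p = 0.738), and the 95% interval from limma-voom ran from a factor of 0.886 to 1.21. A change of the size of the Tlr7 rise lies outside that interval. Libraries labelled Tmem173-/- were at 174, 147 and 169 CPM without and 152, 181 and 135 CPM with cGAMP.

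Tlr8 was close to absent from the counts. It had 2 counts in wild type control replicate 1, 2 in wild type cGAMP replicate 1, 6 in Tmem173-/- cGAMP replicate 3 and 0 in the other 9 libraries. It was below the filter and was not tested. A count of 0 allows up to 3 counts, or 0.0955 to 0.113 CPM by library, for counting error only.

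Unc93b1, the chaperone of the endosomal receptors, had the highest level per length of the 10 genes in every group. It was at 628, 674 and 660 CPM in the wild type controls and 578, 655 and 606 CPM with cGAMP, with a log2 change of -0.09 (SE 0.09, adjusted p = 0.422; 95% interval by limma-voom, a factor of 0.824 to 1.06). Libraries labelled Tmem173-/- held 642, 691 and 731 CPM without and 614, 681 and 686 CPM with cGAMP. The groups overlapped in both genotypes.

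Myd88 was at 55.4, 53.7 and 56.7 CPM in the wild type controls and 59.6, 54.4 and 64.4 CPM with cGAMP. The ranges overlapped, the log2 change was 0.11 (SE 0.08, adjusted p = 0.317), and the 95% interval by limma-voom was a factor of 0.950 to 1.21. Libraries labelled Tmem173-/- were at 51.5, 52.0 and 54.0 CPM without and 47.5, 49.7 and 54.9 CPM with cGAMP. Myd88 shares 290 of its 2576 exon bases with Acaa1a on the opposite strand, a gene that fell in wild type cells (log2 -0.30, SE 0.08, adjusted p = 0.00558). Whether counting used strand is not given in the sources used here, so reads in the shared stretch cannot be told apart.

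**Figure D1:**
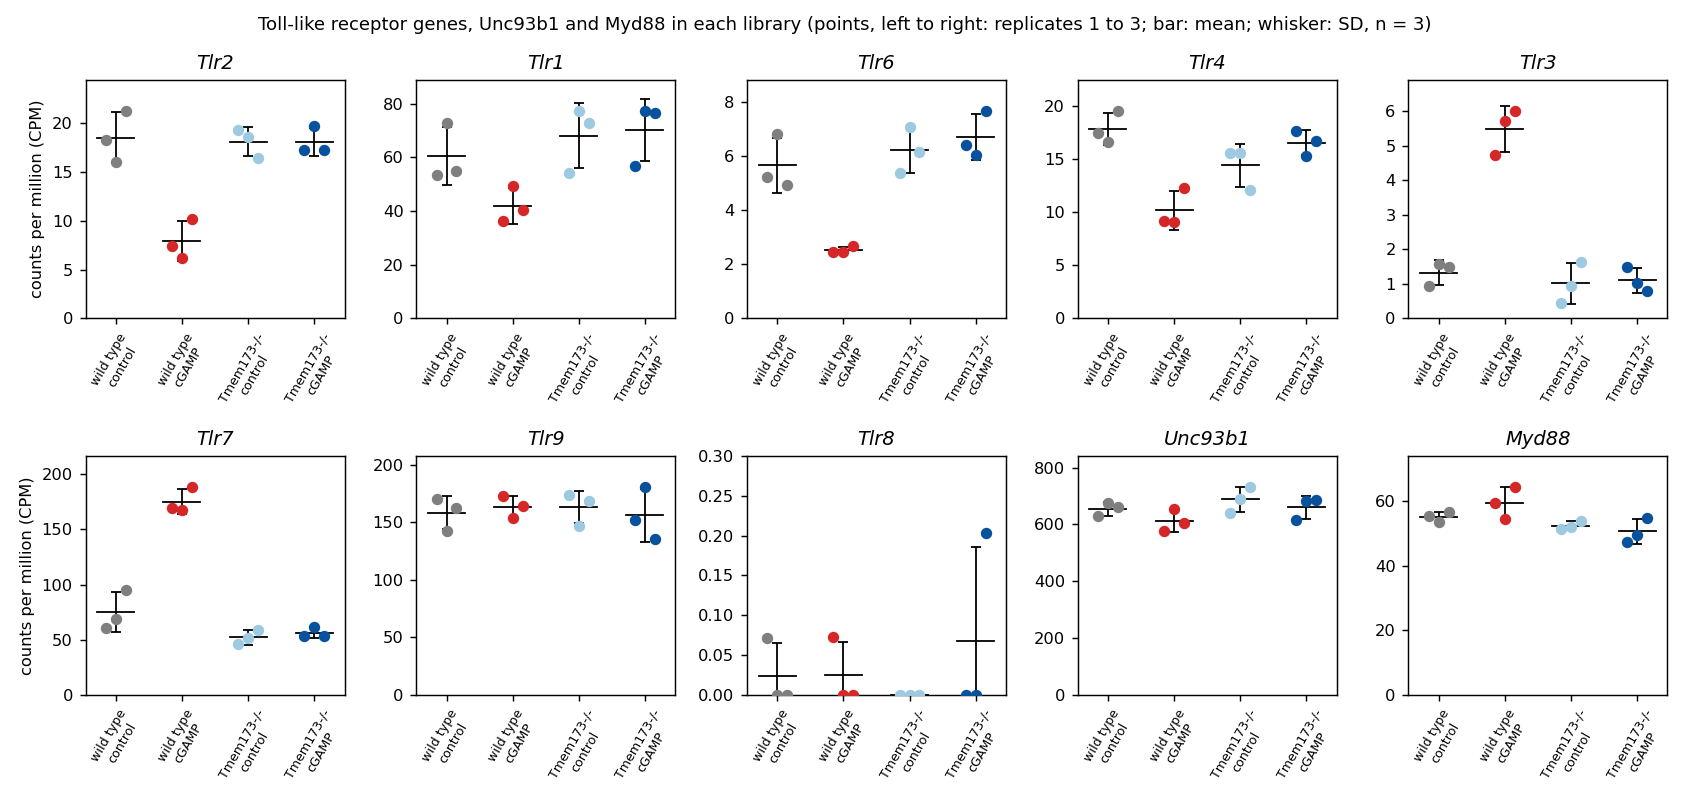
CPM in each of the 12 libraries for the 10 genes, with 3 points per group in replicate order, a bar at the mean and whiskers of 1 SD; each panel has its own axis from 0. Wild type cGAMP libraries lie below their controls for Tlr2, Tlr1, Tlr6 and Tlr4 and above them for Tlr3 (4.73 to 6.02 CPM) and Tlr7 (168 to 188 CPM), while Tlr9, Unc93b1 and Myd88 overlap.

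In cells labelled Tmem173-/- no change with cGAMP passed the same test. None of the 9 tested genes was called, against 0.00% of all tested genes, and none had an unadjusted p under 0.05; DESeq2 and limma-voom called none either. Over all 14473 tested genes 203 had an unadjusted p under 0.05. That is a smaller share than the 0.05 that a calibrated test gives without any change, so the main test may under-call here. With the replicate block 0 genes passed as well. The largest log2 values among the 9 were 0.20 for Tlr4 (SE 0.14) and 0.12 for Tlr3 (SE 0.39). The limma-voom 95% intervals bound the change to a factor of 0.814 to 1.22 for Tlr2, 0.849 to 1.38 for Tlr6, 0.942 to 1.40 for Tlr4 and 0.879 to 1.33 for Tlr7. These intervals leave out falls of the wild type size for Tlr2, Tlr6 and Tlr4 and a rise of that size for Tlr7. The interval for Tlr3, which had at most 45 counts in these libraries, was wider, from 0.632 to 2.27. It also leaves out the wild type rise of 4.11-fold. For Tlr1 the interval was 0.815 to 1.32. That leaves out a fall of the wild type size (1.44-fold) but overlaps the wild type interval, a factor of 0.543 to 0.894.

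The difference between the 2 responses was tested directly as an interaction. It passed for 5 of 9 genes, 2 higher and 3 lower in wild type, where 31.6% of all tested genes passed, 14.1% higher and 17.5% lower. The log2 difference was -1.22 for Tlr2 (SE 0.22, adjusted p = 0.000657), -1.27 for Tlr6 (SE 0.25, adjusted p = 0.00128) and -1.01 for Tlr4 (SE 0.20, adjusted p = 0.00115). For Tlr7 it was 1.12 (SE 0.20, adjusted p = 0.000562). Tlr3 differed by 1.91 (SE 0.52, adjusted p = 0.0110), and without replicate 3 of the controls labelled Tmem173-/- the call was lost (1.39, adjusted p = 0.0501). Tlr1 did not pass (log2 -0.57, SE 0.23, adjusted p = 0.0802), although its fall passed in wild type cells. With a block for replicate numbers, which may mark the same mouse, the Tlr1 difference passed (adjusted p = 0.000318). Tlr9, Unc93b1 and Myd88 had differences of 0.11, -0.04 and 0.16 and did not pass. This test and the wild type comparison share their wild type libraries, so they are 2 readings of the same data.

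**Figure D2:**
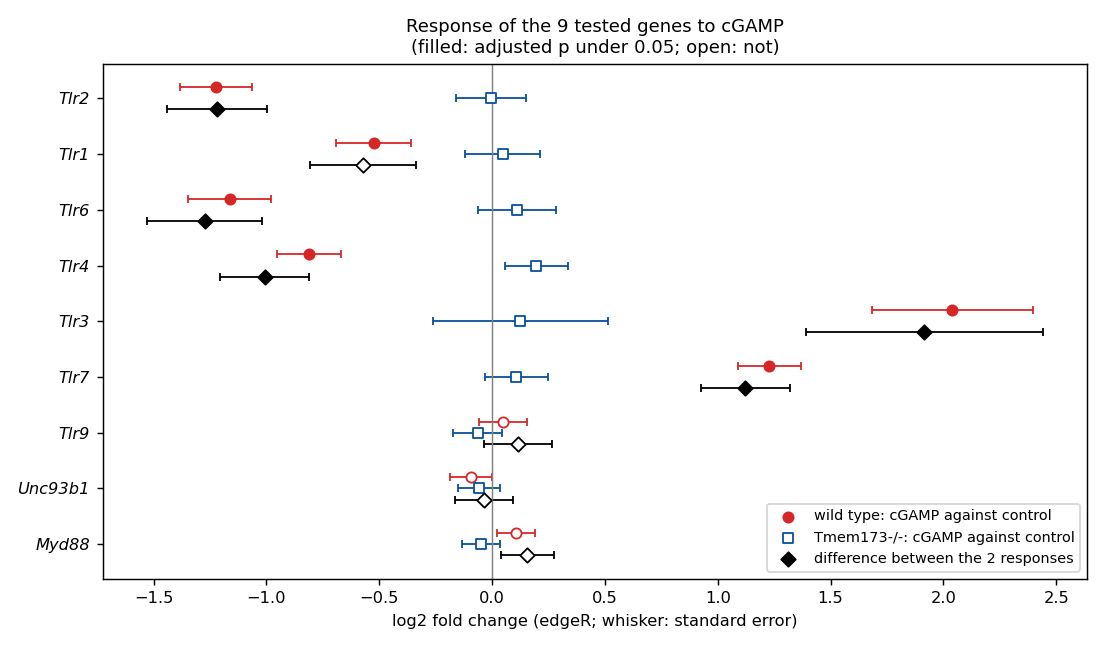
Log2 fold change with its standard error (x axis) for the 9 tested genes, in wild type cells, in cells labelled Tmem173-/- and for the difference between them; filled symbols have an adjusted p under 0.05. Wild type values run from -1.22 (Tlr2) to 2.04 (Tlr3), whereas those labelled Tmem173-/- stay between -0.06 and 0.20.

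Without cGAMP the genotypes did not differ in any of these genes at the threshold. None of the 9 passed, against 0.00% of all tested genes, and 2 had an unadjusted p under 0.05, as did 921 genes in all. DESeq2 called 4 genes in all and limma-voom 0, none of them among these 9. The 2 genes with an unadjusted p under 0.05 were Tlr7 and Tlr4, both lower in controls labelled Tmem173-/-. Tlr7 was at 52.1 ± 6.49 CPM there and 74.8 ± 18.2 in wild type controls (SD, n = 3), without overlap (log2 -0.52, SE 0.14, adjusted p = 0.728). Without wild type control replicate 3, the library high in Irf7, the difference was -0.31 (adjusted p = 1.00). When genes with low counts were kept in the fit, it passed (-0.52, adjusted p = 0.000243). Tlr4 was at 14.4 ± 2.02 and 17.9 ± 1.53 CPM (log2 -0.31, SE 0.14, adjusted p = 0.728).

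Levels of different genes can be set side by side only per length, and here the length chosen changed the order. The deposited FPKM (fragments scaled by gene length and library size) divide by a length that equals, for 9 of these 10 genes, the whole-number part of the mean length of the gene's GENCODE M21 transcripts: 2025 bases for Tlr7, against 4082 bases for the union of its exons, but 3478 bases for Tlr9 by either measure. In wild type controls the deposited FPKM put Unc93b1 first (381 ± 23.6), then Tlr9 (44.2 ± 3.93), Tlr7 (35.6 ± 6.76), Myd88 (33.6 ± 1.06) and Tlr1 (28.5 ± 6.06), and neighbours among the last 4 overlapped. Below them and separate from each other came Tlr4 (9.78 ± 0.32), Tlr2 (5.95 ± 0.54), Tlr6 (2.69 ± 0.59) and Tlr3 (0.663 ± 0.18), and then Tlr8. On the exon union, an alternative chosen after seeing the data, Tlr9 stood clear of Myd88 (20.9 ± 0.66), Tlr7 (17.7 ± 3.35) and Tlr1 (17.6 ± 3.76), and Tlr2 lay above Tlr4 (3.12 ± 0.10).

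With cGAMP in wild type cells Tlr7 gained on Tlr9 by either length, since a gene's length cancels in its own change. In deposited FPKM Tlr7 reached 88.2 ± 5.26 and Tlr9 48.0 ± 2.90, and the ratio of Tlr7 to Tlr9 went from 0.815 ± 0.20 to 1.84 ± 0.15 (SD, n = 3). On the exon union Tlr7 reached 43.8 ± 2.61, which overlapped Tlr9, and the ratio went from 0.405 ± 0.099 to 0.915 ± 0.073. Whether Tlr7 RNA overtook Tlr9 RNA therefore depends on the length used. In libraries labelled Tmem173-/- the ratio in deposited FPKM was 0.551 ± 0.085 without and 0.621 ± 0.049 with cGAMP.

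Summed over the 8 receptors, the endosomal group (Tlr3, Tlr7, Tlr8 and Tlr9) held 63.2% ± 4.09 of the deposited FPKM in wild type controls and 82.0% ± 1.80 with cGAMP (SD, n = 3). The surface group went from 46.9 ± 5.83 to 30.4 ± 3.09 FPKM and the endosomal group from 80.5 ± 5.22 to 139 ± 6.16 FPKM, and for both sums the treated and control libraries did not overlap. Most of the endosomal rise was Tlr7, which went from 35.6 to 88.2 FPKM. Tlr7 alone held 27.9% ± 4.75 of the 8 receptors' deposited FPKM in wild type controls and 52.0% ± 1.17 with cGAMP. The largest part of the surface fall was Tlr1 (28.5 to 20.7 FPKM), the least firm call. On the exon union the endosomal share went from 68.8% ± 3.71 to 83.7% ± 1.80. In libraries labelled Tmem173-/- the share of the deposited FPKM was 59.5% ± 3.82 without and 58.2% ± 3.54 with cGAMP, which overlap.

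**Figure D3:**
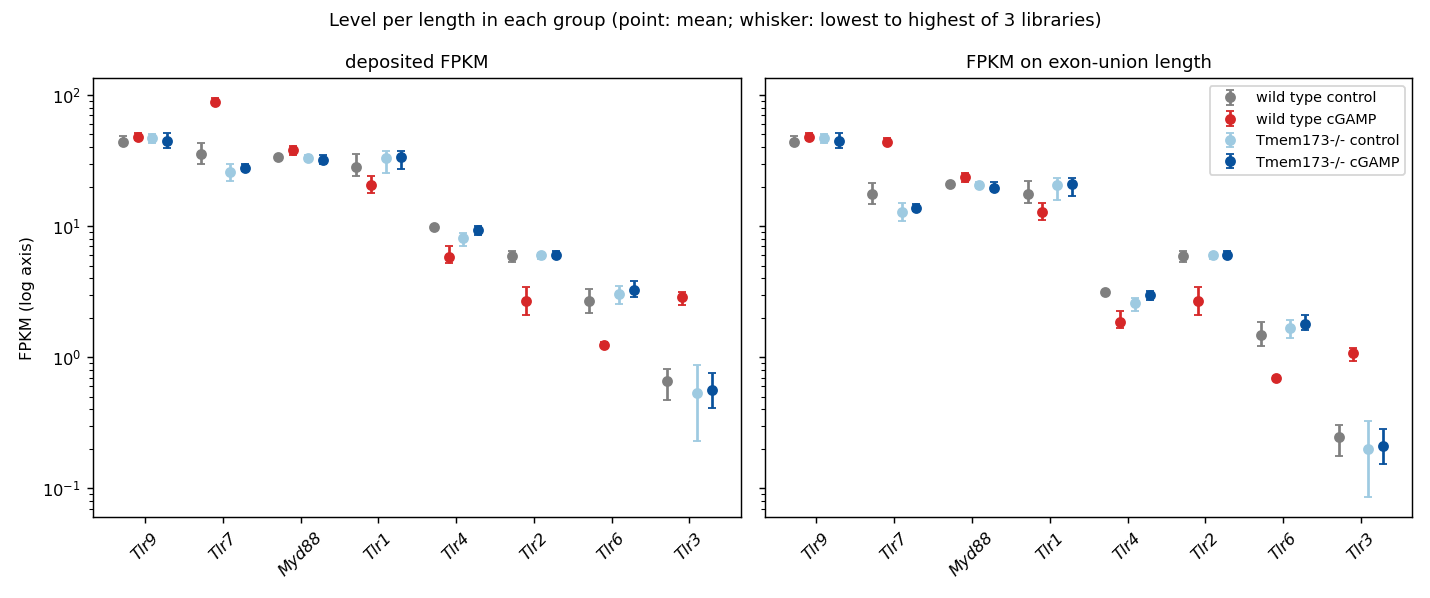
Level per length (FPKM, log axis) in the 4 groups for Tlr9, Tlr7, Myd88, Tlr1, Tlr4, Tlr2, Tlr6 and Tlr3, with the deposited FPKM on the left and FPKM on the exon-union length on the right; points are means and whiskers span the 3 libraries. After cGAMP in wild type cells Tlr7 (88.2) lies above Tlr9 (48.0) on the left and overlaps it (43.8 and 48.0) on the right.

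The rest of the pathway was described with 75 further genes in 7 lists, of which 68 were tested. In wild type cells 19 rose, 22 fell and 27 did not pass, where 22.4% of all tested genes rose and 25.4% fell. In cells labelled Tmem173-/- none passed, and the difference between the responses passed for 16 higher and 18 lower, where 31.6% of all tested genes passed. The counts of each list below are to be read against the same 47.8% of all tested genes that passed in wild type cells, and nothing particular to a list is drawn from them.

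Among genes that help receptors bind, fold, move or mature, 2 of 16 rose and 8 fell (median log2 -0.37), beside 22.4% higher and 25.4% lower over all tested genes. Cd36, a scavenger receptor that assists TLR2 with TLR6, went from 16.8 ± 0.72 to 5.18 ± 0.37 CPM (SD, n = 3; log2 -1.69, SE 0.13, adjusted p = 3.27e-08). Cd180, a TLR4-like receptor of B cells, went from 234 ± 24.6 to 94.1 ± 13.9 CPM (log2 -1.31). The endosomal proteases Ctsl and Lgmn, which cut the ectodomains of nucleic-acid receptors, fell by log2 1.13 and 0.97. The folding chaperones Hsp90b1 (log2 -0.00) and Cnpy3 (0.04), named after their values were seen, did not pass.

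Of the 6 other adaptor genes 2 fell and none rose, where 25.4% of all tested genes fell and 22.4% rose. Ticam1, which encodes the TLR3 adaptor TRIF, went from 78.1 ± 5.70 to 47.9 ± 5.74 CPM (log2 -0.70, SE 0.09, adjusted p = 1.35e-05) while Tlr3 itself rose. Pik3ap1, which encodes the B cell adaptor BCAP, fell by 0.56 on the log2 scale. For both genes the treated and control libraries did not overlap.

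Of 18 Myddosome and kinase genes 5 rose and 5 fell (median 0.13), a share near the 47.8% of all tested genes that passed. Peli1, a ubiquitin ligase that acts with TRIF and IRAK proteins, rose from 77.9 ± 2.43 to 202 ± 9.48 CPM (log2 1.38, SE 0.08, adjusted p = 1.72e-09). Irak3, which encodes the inhibitory IRAK-M, fell from 29.8 ± 0.40 to 12.2 ± 0.85 CPM (log2 -1.29), and Irak2 fell from 88.2 ± 2.79 to 53.2 ± 0.81 CPM (log2 -0.73). Peli3 passed lower (log2 -2.58, adjusted p = 0.0415) but was at 0.517 ± 0.44 and 0.0843 ± 0.12 CPM with overlapping libraries.

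Of 10 transcription factor genes 6 rose and 2 fell (median 0.32), beside 22.4% higher and 25.4% lower over all tested genes. Irf7 rose from 46.6 ± 38.3 to 666 ± 81.6 CPM (log2 3.84, SE 0.59, adjusted p = 0.000761), Jun from 10.7 ± 1.77 to 44.1 ± 4.26 CPM (log2 2.05) and Fos from 1.36 ± 0.22 to 3.07 ± 0.57 CPM (log2 1.18). Irf1 rose by 0.41 on the log2 scale, and its difference between genotypes did not pass (0.36, adjusted p = 0.1).

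Of 13 negative regulators 6 rose and 4 fell (median 0.03), where 22.4% of all tested genes rose and 25.4% fell. Trafd1, an interferon-induced inhibitor, rose from 55.7 ± 7.23 to 179 ± 22.1 CPM (log2 1.68) and Socs1, an inhibitor of cytokine signalling, from 5.30 ± 1.40 to 15.0 ± 2.13 CPM (adjusted p = 1.33e-05). Tnip3 rose by 1.53 from a low level (0.626 CPM), and its difference between genotypes did not pass (adjusted p = 0.508). Nlrx1 went from 4.83 ± 1.02 to 1.92 ± 0.74 CPM (log2 -1.33).

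Of the other receptors that use MyD88, those for interleukins, 3 were tested and 1 fell. Il1r1 went from 2.68 ± 0.38 to 0.992 ± 0.27 CPM (log2 -1.43, SE 0.27, adjusted p = 0.000439). Of the other mouse Toll-like receptor genes, Tlr12 (1.78 ± 0.31 CPM in wild type controls) and Tlr13 (0.614 ± 0.27 CPM) were tested and did not pass, and Tlr5 and Tlr11 had at most 5 counts in any library.

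**Figure D4:**
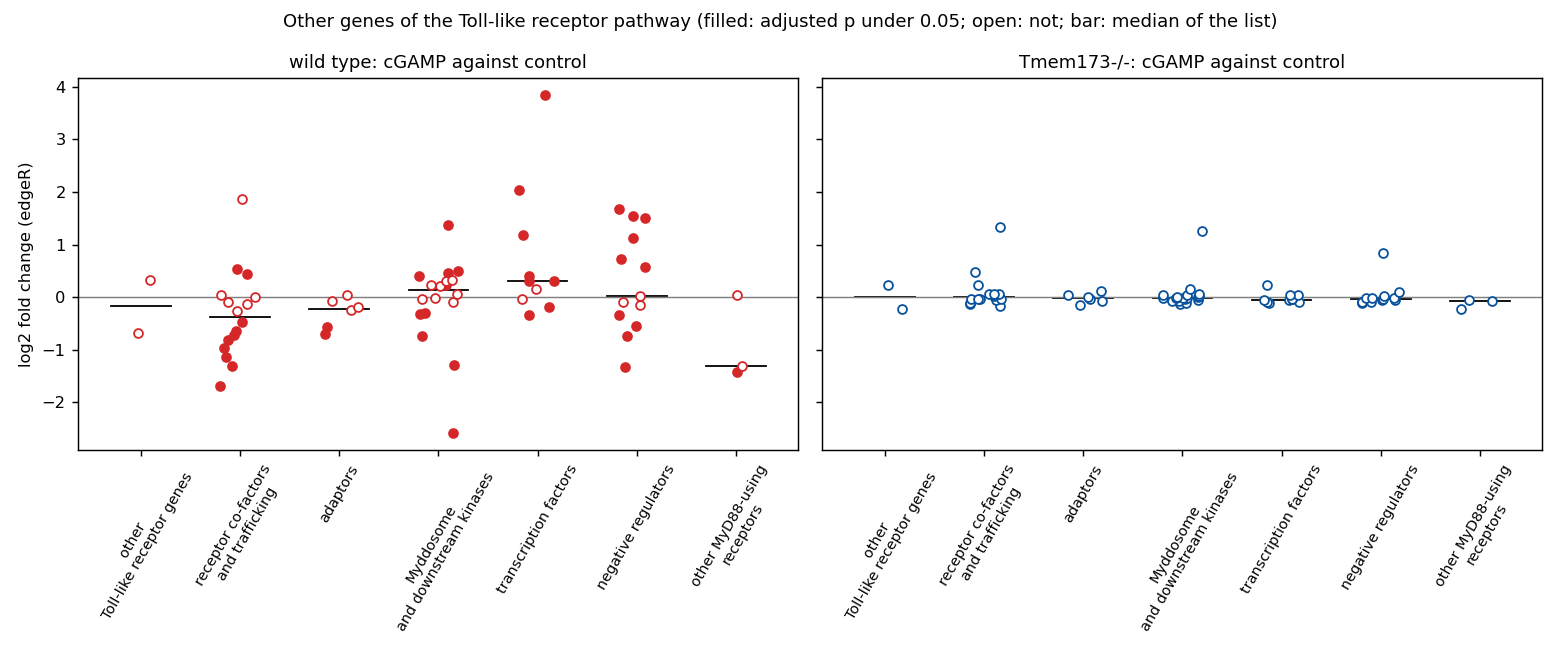
Log2 fold change with cGAMP of the 68 other tested pathway genes in 7 lists, in wild type cells (left) and in cells labelled Tmem173-/- (right); filled points have an adjusted p under 0.05 and bars are list medians. Filled points lie on both sides of 0 on the left, from Peli3 at -2.58 to Irf7 at 3.84, and there are none on the right.

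The genes whose log2 CPM followed each receptor most closely over the 12 libraries were listed, 3 for each, among 9128 genes with a mean of at least 5 CPM. The points share libraries and the contrast between treated wild type cells and the rest, so Pearson's r is given as a description. Tlr7 was most like Oas3, Trim30a and Irf7 (r = 0.993 each), and Tlr3 most like Trim12c (0.976), Ddx58 (0.974) and Trim25 (0.973). Oas3, Ddx58 and Trim25 are known interferon-induced genes of RNA sensing. Tlr2 was most like Usp38 (0.989), Tlr1 most like Snx30 (0.987) and Tlr4 most like Kyat3 (0.962). Tlr6 was most like Gsap (0.990) and then Slc15a4 (0.989), an endolysosomal transporter needed for TLR7 and TLR9 signalling, which went from 77.6, 95.4 and 79.4 CPM in wild type controls to 48.3, 50.6 and 54.7 CPM with cGAMP (log2 -0.72, SE 0.10, adjusted p = 3.26e-05). The genes that did not pass in any comparison had looser matches: Unc93b1 with Cd37 (0.924), Myd88 with Axin1 (0.914) and Tlr9 with Spty2d1 (0.844).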

How the data were processed

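Poly-A RNA of 12 libraries was sequenced. The authors deposited whole-number read counts per gene (featureCounts after fastp and STAR on GRCm38, mm10, per the submitters' processing notes) and FPKM, whose length per gene was worked out from the deposited counts and FPKM. Whether counting used strand is not given in the sources used here. All 12 sample columns were used. Counts were tested with edgeR 4.0.16 (quasi-likelihood, TMM scaling, its filter on low counts, robust, 1 mean for each of the 4 groups) in R 4.3.3, with Benjamini-Hochberg adjustment over 14473 genes and a threshold of 0.05. The fit was tested on simulated data. Alternatives were median-of-ratios scaling, library totals, no filter, DESeq2 1.42.0, limma 3.58.1 (voom, and log2(FPKM + 1 or + 0.1)), a replicate block, only the groups compared, each library left out in turn, and both wild type libraries numbered 1 left out. CPM use edgeR's scaled totals, and 95% intervals are from limma-voom. FPKM on exon-union length used the deposited gene lengths. Library totals were 26490593 to 31417833, so a count of 0 allows 3 counts, or at most 0.113 CPM; this covers counting error only.

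The genes and the pathway, marker and motif lists were chosen with earlier results of these data known. Named were all 10 genes, Tmem173, in each list up to 4 genes with the largest wild type change that passed, and the 3 genes most like each receptor by Pearson's r of log2 CPM (prior count 2). Equal replicate numbers were not treated as pairs in the main test, because the labels do not say that they mark the same mouse. Between equal numbers, correlations of deviations from group means were 0.300, 0.218 and 0.0834 in wild type libraries. In Tmem173-/- libraries they were 0.288, 0.0958 and 0.170, so each was positive. With 3 mice per genotype, control and cGAMP libraries may share mice, which the main test leaves out and the replicate block takes in.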

Additional observations from a re-analysis of the deposited data

Results flagged for a closer look

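The response to cGAMP differed between wild type cells and cells labelled Tmem173-/- for 5 of the 9 tested genes by the interaction test of edgeR. The log2 difference (wild type minus Tmem173-/-) was -1.22 for Tlr2, -1.27 for Tlr6, -1.01 for Tlr4, 1.91 for Tlr3 and 1.12 for Tlr7, and 31.6% of all tested genes passed the same test. In wild type cells all 3 treated libraries lay on the same side of all 3 controls for each of these 5 genes. In cells labelled Tmem173-/- the treated and control libraries overlapped for each of them. Because the 5 genes were picked by a test on these same libraries, this pattern is a description and no further support. The share of all tested genes without overlap was not worked out. Since 47.8% of all tested genes passed in wild type cells, nothing particular to these 5 genes is drawn from it.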

How the results depend on the processing

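The direction and call of Tlr2, Tlr6, Tlr4, Tlr3 and Tlr7 in wild type cells held in all 22 alternatives. Tlr1 kept its direction there (log2 -0.66 to -0.38) and lost its call in 7. With each library left out in turn, 5 to 6 of the 9 genes passed in wild type cells, beside 6025 of 14896 to 7084 of 14924 tested genes. In the other 2 comparisons 0 of the 9 passed, and at most 1 of all tested genes. For the difference between responses 4 to 6 of the 9 passed, beside 3577 of 14899 to 4477 of 14924 tested genes. These counts therefore show nothing particular to these genes. For that difference Tlr1 passed in 4 of 21 alternatives (lowest adjusted p with a library left out, 0.0269; without the filter, 0.00119) and Tlr3 was lost in 1. Without the filter on low counts 1 gene, Tlr7, passed between the untreated genotypes, and all calls there went from 0 of 14473 to 151 of 26792 genes; those with cGAMP in Tmem173-/- libraries went from 0 to 23. The cause was not tested.

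With the replicate block, fitted within genotypes, 7749 genes passed in wild type cells (6921 without), and Tlr1 passed for the difference between responses (log2 -0.57, adjusted p = 0.000318). It changed no other call among these genes, and the untreated genotypes cannot be compared within it. Each library correlated best with its own number in the other group of its genotype, a hint from the data, not the design.

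Signs changed only where no call was made. Tlr2 in Tmem173-/- libraries was 0.0009 with only the groups compared. The Unc93b1 difference between responses was 0.0434 with library totals, 0.0405 with FPKM + 1 and 0.0406 with FPKM + 0.1, and the Tlr2 difference between untreated genotypes was 0.0235, 0.0219 and 0.0255. With each library left out, the range was -0.0287 to 0.0976 for Tlr9 in wild type cells. In Tmem173-/- libraries it was -0.0903 to 0.1773 for Tlr1, -0.0688 to 0.0445 for Tlr2, -0.2278 to 0.6482 for Tlr3 and -0.1801 to 0.028 for Tlr9. It was -0.0909 to 0.0188 for the Unc93b1 difference between responses, and -0.1252 to 0.0773 for Tlr2 and -0.0266 to 0.1163 for Tlr9 between untreated genotypes. Depth limits Tlr3 and Tlr8.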
